A study of Homo sapiens with 6 samples.

Results

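The genes described here are the nuclear-encoded subunits of the mitochondrial respiratory chain and ATP synthase. A gene was included when its NCBI Gene ID had a current protein-coding symbol beginning with NDUFA, NDUFB, NDUFC, NDUFS, NDUFV, UQCR, COX4, COX5, COX6, COX7, COX8, ATP5F1, ATP5M or ATP5P, or was CYC1, SDHA, SDHB, SDHC or SDHD. This rule, which uses no measured value, found 94 of the 25702 IDs. Of these, 37 belong to complex I, 4 to complex II, 10 to complex III, 17 to complex IV and 18 to complex V. The other 8 are NDUFAF1 to NDUFAF8, which match the prefix but encode assembly factors of complex I and not subunits, and they are described apart from the 86 subunit genes. NDUFA4 now has the symbol COXFA4 and lies outside the rule.

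The libraries were made from K562, an established human line of chronic myeloid leukaemia with erythroid features, transfected with a pCMV-HA plasmid that was empty (EV) or carried wild-type MXD3 or the fusion STIM1::MXD3. MXD3 is a transcriptional repressor that opposes MYC at E-box DNA, and the fusion keeps its DNA-binding domain without its repression domain. Each group had 2 libraries from independent transfections. The plasmids were introduced transiently by nucleofection into cells that carry no other labelled genotype or treatment, every group received the same vector backbone, and RNA was taken from cultures in which not every cell need hold a plasmid. The comparisons asked how the transcripts of the respiratory chain stood with each construct against EV, and with the fusion against MXD3. Protein, enzyme activity and respiration were not analysed here.

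Complex I takes electrons from NADH and complex II, which is also an enzyme of the citric acid cycle, takes them from succinate. Both pass them through ubiquinone to complex III, cytochrome c and complex IV, where oxygen is reduced, and ATP synthase (complex V) uses the resulting proton gradient. Most subunits are encoded in the nucleus and imported, the remaining ones are encoded by mitochondrial DNA, and promoters of the nuclear genes are known for binding sites of NRF1, of ETS factors such as GABPA, and of YY1.

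Total counts were 53048343 to 63835779 per library, and the 94 genes held 1.23% to 1.37% of them. MXD3 stood at 9.33 and 11.7 CPM (counts per 1000000, with library sizes scaled by TMM) in the EV libraries, 2523 and 2162 CPM with MXD3 and 1975 and 1849 CPM with STIM1::MXD3, and rose in both comparisons with EV (adjusted p = 4.37e-05 and 5.23e-05, edgeR). STIM1 stood at 205 and 176 CPM in EV, 187 and 159 CPM with MXD3 and 471 and 453 CPM with the fusion, above the other 4 libraries as the labels say, but missed the edgeR threshold for the fusion against EV (1.28 ± 0.14; adjusted p = 0.359) and was called by DESeq2. All 10 erythroid markers were detected in every library. Of 12 markers of other cell types, MS4A1 was at 0 in all libraries, ALB had counts in 1 library, and 4 of the 12, both of these included, stayed under 1 CPM throughout. Their summed level, 287 to 418 CPM, came mostly from the epithelial markers KRT19 (159 to 273 CPM) and EPCAM (77.9 to 101 CPM). In bulk RNA, fewer cells expressing a gene and less RNA per cell cannot be told apart.

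Of the 94 genes, 89 passed the filter on low counts and 5 did not (COX4I2, COX6A2, COX7A1, COX8C and ATP5MGL). The 89 had short transcripts, with a median of 804 bases against 3104 bases over all 15431 genes tested, and were abundant, with a median of 98.9 CPM against 19.2 CPM. The length is that of the canonical transcript. Compared per kilobase of this transcript, the highest levels were those of UQCRH (756 to 1147 CPM per kilobase over the 6 libraries), the hinge protein of complex III, and ATP5F1B (781 to 969.6 CPM per kilobase), the catalytic beta subunit of ATP synthase. COX4I1, ATP5MC2, ATP5PO and COX8A followed with means of 533, 487, 484 and 482 CPM per kilobase. The ranges of UQCRH and ATP5F1B overlapped. These levels depend on the transcript chosen. For ATP5F1A, the alpha subunit, the canonical transcript has 5761 bases and its level was 94.4 CPM per kilobase, although its CPM was the second highest of the 94.

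The median level per kilobase was highest for complex IV, at 200 to 311 CPM per kilobase across the 6 libraries (13 genes). It was 143 to 162 for complex V (17 genes), 101 to 133 for complex II (4 genes), 80.1 to 87.03 for complex I (37 genes) and 52.1 to 82.1 for complex III (10 genes). The medians of complexes I and III overlapped between libraries, whereas those of complexes IV and V did not. The 8 assembly factors lay lowest, at 13.7 to 17 CPM per kilobase.

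Several subunits of complex IV have tissue isoforms, and the form known from most tissues was the higher one throughout. COX4I1 had 376 to 431 CPM, while COX4I2, the lung isoform, had the counts 0, 0, 0, 0, 2, 0 in the EV, MXD3 and STIM1::MXD3 libraries, in that order and by replicate. COX6A2 and COX7A1, the heart and muscle isoforms, had counts of 0, 2, 0, 0, 0, 0 and 5, 6, 0, 4, 15, 2, against 129 to 174 CPM for COX6A1 and 92.6 to 144 CPM for COX7A2. COX8C, a testis isoform, had counts of 2, 0, 0, 1, 0, 2, against 196 to 293 CPM for COX8A. COX6B1 had 158 to 191 CPM and COX7B 99.1 to 122 CPM. Their testis isoforms COX6B2 (0.274 to 0.925 CPM) and COX7B2 (0.202 to 0.496 CPM) passed the filter at levels under 1 CPM, and had the largest standard errors of the 89. ATP5MGL, a copy of ATP5MG, had counts of 0, 0, 1, 3, 0, 1. No fold change is given for isoforms at these counts, although COX6B2 and COX7B2 are included in the counts and medians of the 89 genes.

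Promoters from RefSeq (GRCh38.p14, 250 bases before to 50 after the gene start) were matched to 76 of the 94 genes. Each was searched on both strands for the E-box CACGTG, NRF1 as GCGCNTGCG, ETS as CCGGAAG and YY1 as AAGATGGCG. Matches may overlap, since the ETS and YY1 letters share AAG at one end. The 4 promoters below belong to the 3 genes with the lowest values with MXD3 against EV and to the subunit gene with the highest value with the fusion against EV, among genes with a mean of at least 5 CPM, and show which of these letters they hold. Capitals mark every match to 1 of the 4 motifs.
NDUFS3 (chr11:47578824-47579123, plus strand): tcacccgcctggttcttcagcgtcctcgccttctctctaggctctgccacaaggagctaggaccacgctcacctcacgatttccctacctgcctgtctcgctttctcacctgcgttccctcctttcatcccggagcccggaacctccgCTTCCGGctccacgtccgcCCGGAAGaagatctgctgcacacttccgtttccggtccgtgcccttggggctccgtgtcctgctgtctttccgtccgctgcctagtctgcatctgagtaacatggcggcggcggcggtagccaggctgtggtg
SDHB (chr1:17053983-17054282, minus strand): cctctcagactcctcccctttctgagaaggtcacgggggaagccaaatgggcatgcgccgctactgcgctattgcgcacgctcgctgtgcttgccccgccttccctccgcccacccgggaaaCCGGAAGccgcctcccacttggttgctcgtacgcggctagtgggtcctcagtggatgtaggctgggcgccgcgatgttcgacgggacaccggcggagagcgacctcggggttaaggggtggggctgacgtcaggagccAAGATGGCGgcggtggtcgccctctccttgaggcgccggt
NDUFS7 (chr19:1383657-1383956, plus strand): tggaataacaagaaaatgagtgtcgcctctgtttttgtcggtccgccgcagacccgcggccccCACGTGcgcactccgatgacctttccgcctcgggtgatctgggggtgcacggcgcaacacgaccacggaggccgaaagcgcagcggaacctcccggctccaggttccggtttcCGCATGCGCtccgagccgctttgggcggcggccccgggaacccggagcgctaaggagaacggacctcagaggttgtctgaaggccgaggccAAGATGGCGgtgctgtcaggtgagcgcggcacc
ATP5MC1 (chr17:48892537-48892836, plus strand): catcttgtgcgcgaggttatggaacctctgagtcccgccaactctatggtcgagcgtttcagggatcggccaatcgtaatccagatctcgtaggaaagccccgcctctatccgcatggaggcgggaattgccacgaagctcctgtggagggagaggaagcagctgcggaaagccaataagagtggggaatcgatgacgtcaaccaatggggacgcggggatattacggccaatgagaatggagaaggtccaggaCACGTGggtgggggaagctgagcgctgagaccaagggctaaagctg

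The NDUFS3 promoter held 2 ETS matches, the first 102 bases before the gene start, from which all positions here are counted. The SDHB promoter held an ETS match at -128 and a YY1 match at 11. NDUFS7 had an E-box at -187, an NRF1 match at -74 and a YY1 match at 18, and ATP5MC1 had a single E-box at 5. The assembly factor NDUFAF4, whose promoter is not shown, had a higher value with the fusion against EV (0.26 against 0.22 for ATP5MC1). Its promoter held an ETS match at -147 and no E-box. Over the 76 promoters, NRF1 letters were present in 24 (31.6%, against 11% of 15843 protein-coding promoters of the same length), ETS letters in 21 (27.6% against 14.2%) and YY1 letters in 8 (10.5% against 2.74%). The E-box was present in 8 (10.5% against 8.88%), namely NDUFA7, NDUFA11, NDUFS7, UQCR11, ATP5MC1, ATP5ME, ATP5PB and NDUFAF5. Among the 10881 protein-coding promoters of genes tested, the shares were nearer, at 14.4% for NRF1, 18.7% for ETS, 3.81% for YY1 and 9.99% for the E-box. A match describes the letters and is not a measured binding site. The median log2 fold change with MXD3 against EV was -0.028 for the 8 genes with an E-box and -0.12 for the 66 tested genes without one, and 0.0049 and -0.0086 with the fusion against EV. With MXD3 against EV the medians were -0.12 with NRF1 letters (23 genes) and -0.12 without (51 genes), -0.14 with ETS letters (21 genes) and -0.11 without (53 genes), and -0.19 with YY1 letters (8 genes) and -0.12 without (66 genes).

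Of the 3 comparisons, MXD3 against EV had the median furthest from 0, and most of the genes had slightly lower values with MXD3. Of the 89 genes, 71 had a log2 fold change below 0 and 18 above, with a median of -0.12, a change of -7.89% (all genes tested 0.0011, of which 49.8% were below 0). The medians of the single ratios were -0.10 between the replicate 1 libraries and -0.12 between the replicate 2 libraries. No gene passed the test. edgeR called 0 of the 89 after adjustment (0.00648% of all genes) and 0 at an unadjusted p under 0.05 (1.86% of all genes), and DESeq2 called 0 (0.0194% of all genes). The smallest unadjusted p was 0.104, for NDUFS3, and the standard errors of the 87 genes with a mean of at least 5 CPM were 0.11 to 0.43, with a median of 0.16. Both MXD3 libraries lay below both EV libraries for 24 genes (27%, against 14.8% of all genes) and above them for 0 (against 16.2% of all genes). The median moved to -0.049 without EV replicate 2 and -0.059 without MXD3 replicate 1, and to -0.073 with offsets for transcript length and GC content.

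With the replicate number as a block in edgeR, 0 of the 89 were again called for MXD3 against EV (0.292% of all genes), with a smallest adjusted p of 0.189 for NDUFS7. At an unadjusted p under 0.05 the count went from 0 to 18, all lower (6.99% of all genes were lower by this rule). The 18 were NDUFA9, NDUFAB1, NDUFB5, NDUFB9, NDUFS3, NDUFS7 and NDUFS8 in complex I, SDHB and SDHD in complex II, CYC1, UQCRB, UQCRC1 and UQCRC2 in complex III, COX4I1, COX6A1, COX7A2 and COX8A in complex IV, and ATP5F1A in complex V.

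**Figure D1:**
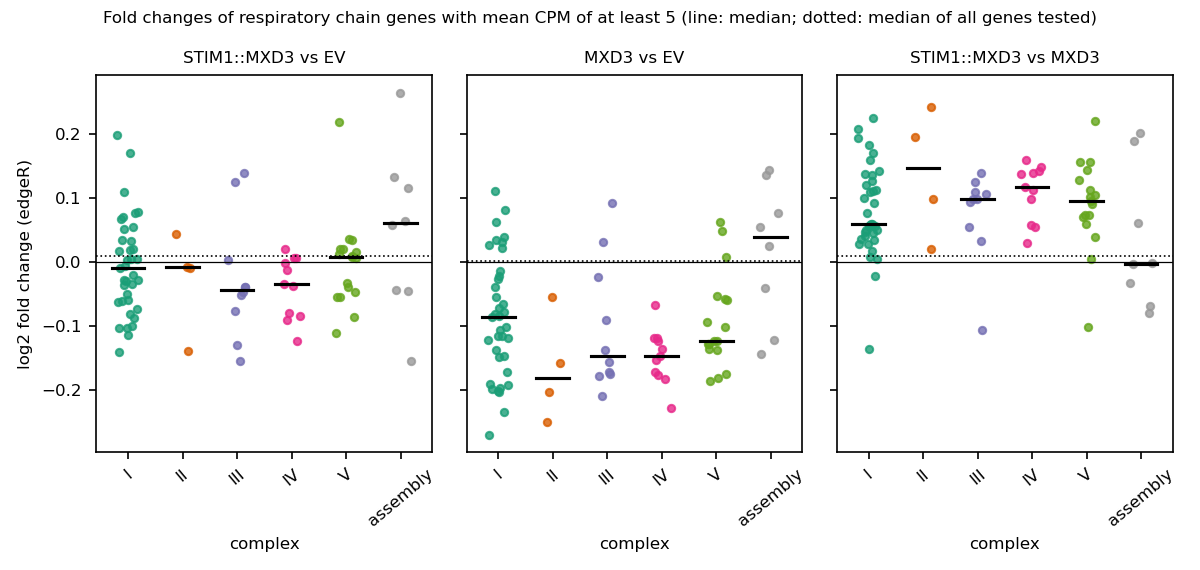
Log2 fold change (edgeR, vertical axis) of each respiratory chain gene with a mean of at least 5 CPM, by complex (horizontal axis), in the 3 comparisons. Each point is a gene, the bar is the median of the complex and the dotted line the median of all genes tested. With MXD3 against EV the medians of complexes I to V lie below 0 and that of the assembly factors above it.

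In complex I, 29 of 37 genes were below 0 with MXD3 (median -0.087), including all 7 nuclear-encoded core subunits, which form the arm that takes up the electrons (median -0.12). The lowest of the 87 genes with a mean of at least 5 CPM was NDUFS3, a core subunit of the peripheral arm (chromosome 11 from 47586888 to 47606114, plus strand, GRCh37). It stood at 93.4 and 91.8 CPM in the EV libraries, 79.2 and 74.3 CPM with MXD3 and 98.9 and 78.5 CPM with STIM1::MXD3. Both MXD3 libraries were below both EV libraries, and 1 fusion library lay above and 1 below the EV libraries. The log2 fold change with MXD3 was -0.27 ± 0.14 (SE; adjusted p = 0.999, edgeR). NDUFS7, which holds the last iron-sulphur cluster before ubiquinone (chromosome 19 from 1383526 to 1395588, plus strand, GRCh37), stood at 196 and 145 CPM in EV, 173 and 117 CPM with MXD3 and 190.4 and 128 CPM with the fusion. The replicate 2 library was the lower one in every group, and the groups overlapped. Its log2 fold change with MXD3 was -0.24 ± 0.27 (adjusted p = 0.999, edgeR). NDUFS1, the largest core subunit, and NDUFV1, which binds NADH, had values of -0.081 and -0.10. NDUFB8, an accessory subunit of the membrane arm, had 0.034, and NDUFC2, another, had the highest value of the subunit genes at 0.11 ± 0.22.

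All 4 genes of complex II were below 0 with MXD3 (median -0.18). SDHB, the iron-sulphur subunit (chromosome 1 from 17345159 to 17380527, minus strand, GRCh37), stood at 171 and 141 CPM in EV, 140 and 122 CPM with MXD3 and 174 and 136 CPM with the fusion. The MXD3 libraries were below the EV libraries, though the higher MXD3 library nearly reached the lower EV library, and the replicate 1 library of each group was the higher one. The log2 fold change was -0.25 ± 0.17 (adjusted p = 0.999, edgeR). SDHA, the flavoprotein that oxidises succinate, had -0.16, and the membrane anchors SDHC and SDHD had -0.054 and -0.20.

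In complex III, 8 of 10 genes were below 0 with MXD3 (median -0.15, but -0.015 without EV replicate 2 and -0.014 without MXD3 replicate 1). CYC1, the cytochrome c1 subunit, was the lowest at -0.21 ± 0.13, with 166 and 159 CPM in EV, 149.6 and 132 CPM with MXD3 and 155 and 137 CPM with the fusion. All 4 libraries with a construct lay below both EV libraries. UQCRC1, a core protein, UQCRFS1, the Rieske iron-sulphur protein, and UQCRH had -0.17, -0.090 and -0.14.

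Complex IV had all of its 13 tested genes below 0 with MXD3 (median -0.15), among them COX6B2 and COX7B2 at under 1 CPM. Yet the MXD3 libraries were apart from the EV libraries for 1 of the 13 (7.69%, against 14.8% of all genes that were lower without overlap). This was COX4I1, which stood at 420.3 and 431 CPM in EV, 380.2 and 376 CPM with MXD3 and 431 and 400.2 CPM with the fusion, with a log2 fold change of -0.17 ± 0.12 with MXD3 (adjusted p = 0.999, edgeR). COX5A, COX5B, COX6A1, COX7A2 and COX8A had values of -0.14, -0.15, -0.18, -0.23 and -0.18. In these genes the difference between the replicates of a group was larger than or near that between the groups.

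In complex V, 14 of 17 genes were below 0 with MXD3 (median -0.12), among them all 5 genes of the F1 part (ATP5F1A to ATP5F1E). ATP5F1B, the most abundant of the 94 by CPM, stood at 1702 and 1504 CPM in EV, 1541 and 1374 CPM with MXD3 and 1706 and 1427 CPM with the fusion. The higher MXD3 library lay above the lower EV library, and the log2 fold change was -0.14 ± 0.15 (adjusted p = 0.999, edgeR). ATP5F1A and ATP5F1E had -0.19 and -0.12. ATP5MC1, ATP5MC2 and ATP5MC3, which encode the same mature subunit c of the membrane rotor, had 0.061, -0.057 and -0.060, and ATP5PB, of the peripheral stalk, -0.14. Of the 8 assembly factors 5 were above 0 (median 0.039), but the medians of the single ratios were -0.018 for the replicate 1 and 0.030 for the replicate 2 libraries, and their difference from the complexes was not tested. NDUFAF7 and NDUFAF8 had the highest values of these 87 genes, 0.14 ± 0.17 and 0.13 ± 0.24, and neither passed the test (adjusted p = 0.999 for both, edgeR). NDUFAF1, NDUFAF2, NDUFAF3, NDUFAF4, NDUFAF5 and NDUFAF6 had 0.054, -0.14, 0.025, 0.076, -0.042 and -0.12.

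**Figure D2:**
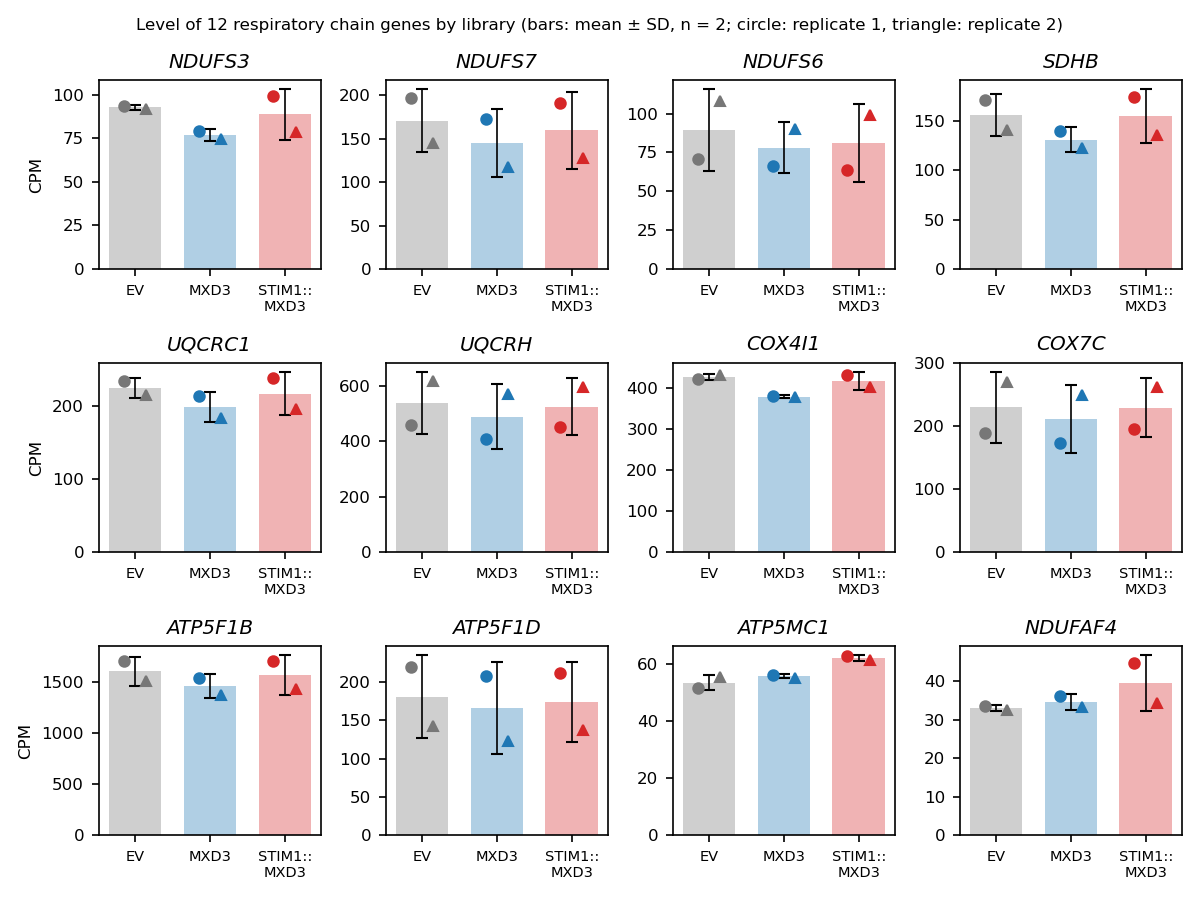
Level in CPM (vertical axis) of 12 genes in the EV, MXD3 and STIM1::MXD3 groups. Bars are means with the SD over 2 libraries, circles are replicate 1 and triangles replicate 2. NDUFS3, SDHB and COX4I1 have both MXD3 libraries below both EV libraries. SDHB, NDUFS7, NDUFS6, UQCRC1, UQCRH, COX7C, ATP5F1B and ATP5F1D have a larger log2 difference between replicate numbers than between MXD3 and EV.

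Other genes with short transcripts also had a median below 0 with MXD3. Among other genes with canonical transcripts under 1000 bases (1203 genes) the median log2 fold change with MXD3 against EV was -0.068, against -0.12 for the 51 respiratory chain genes of that length. At 1000 to 2000 bases the medians were -0.028 for 2792 other genes and -0.12 for 19 respiratory chain genes, and over 4000 bases 0.021 for 5179 and -0.081 for 9. Among markers, KRT19 stood at 273 and 206 CPM in EV and 203 and 159 CPM with MXD3, and HBZ, an embryonic globin made by K562, at 263 and 145 CPM in EV and 354 and 188 CPM with MXD3. With the replicate block DESeq2 called both, among 254 of 15431 genes and 0 of the 89 respiratory chain genes. With the block edgeR called 1 of the 10 erythroid markers and 0 of the 12 other markers, against 0.292% of all genes. Without the block neither tool called any of these markers. The summed markers of other cell types were 418 and 343 CPM in EV, 339 and 287 CPM with MXD3 and 408 and 305 CPM with the fusion. The part of these and, beyond the offsets, of length in the values above was not tested.

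With STIM1::MXD3 against MXD3 the direction was opposite, in libraries shared with the comparison above. Of the 89 genes, 79 had a log2 fold change above 0 and 10 below, with a median of 0.094, a change of 6.72% (all genes tested 0.0083). The medians of the single ratios were 0.13 and 0.061 for the replicate 1 and replicate 2 libraries. edgeR called 0 of 89 after adjustment (0% of all genes) and 0 at an unadjusted p under 0.05 (1.01% of all genes), and DESeq2 called 0 (0.00648% of all genes). With the replicate block edgeR called 0 (0.00648% of all genes), and at an unadjusted p under 0.05 there were 5, all higher (NDUFAB1, NDUFB11, NDUFS3, SDHB and ATP5F1A; 3.21% of all genes were higher by this rule). The fusion libraries lay above both MXD3 libraries for 16 genes (18%, against 10.9% of all genes) and below them for 0 (against 10.2% of all genes). The median was 0.0399 without MXD3 replicate 1, 0.06 without STIM1::MXD3 replicate 2 and 0.041 with the offsets for length and GC content.

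The medians of the fusion against MXD3 were 0.058 in complex I, 0.15 in complex II, 0.098 in complex III, 0.12 in complex IV and 0.095 in complex V, and -0.0033 for the assembly factors. Some turned when 1 library was left out, to -0.031 in complex II without STIM1::MXD3 replicate 1, -0.024 in complex III without STIM1::MXD3 replicate 2 and -0.015 in complex IV without MXD3 replicate 1. SDHB had the highest value among genes with a mean of at least 5 CPM, with a log2 fold change of 0.24 ± 0.17 (adjusted p = 1.00, edgeR). Its ratios were 0.32 and 0.15 in the replicate 1 and replicate 2 libraries. NDUFB11, an accessory subunit of the membrane arm, stood at 112 and 105 CPM in EV, 99.96 and 96.04 CPM with MXD3 and 118 and 111 CPM with the fusion. The fusion libraries were above the MXD3 libraries without overlap and the difference was 0.22 ± 0.12 (adjusted p = 1.00, edgeR). ATP5F1A stood at 619 and 506 CPM in EV, 526 and 462 CPM with MXD3 and 659.9 and 491 CPM with the fusion. Here the lower fusion library was below the higher MXD3 library, and the difference was 0.22 ± 0.19 (adjusted p = 1.00, edgeR). The lowest values of such genes were those of NDUFA3, UQCRQ and ATP5PD, -0.14 ± 0.20, -0.11 ± 0.23 and -0.10 ± 0.12. Other genes under 1000 bases had a median of 0.067 in this comparison, against 0.073 for the respiratory chain genes of that length. At 1000 to 2000 bases the medians were 0.058 and 0.10, at 2000 to 4000 bases 0.018 and 0.094, and over 4000 bases -0.034 and 0.099.

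**Figure D3:**
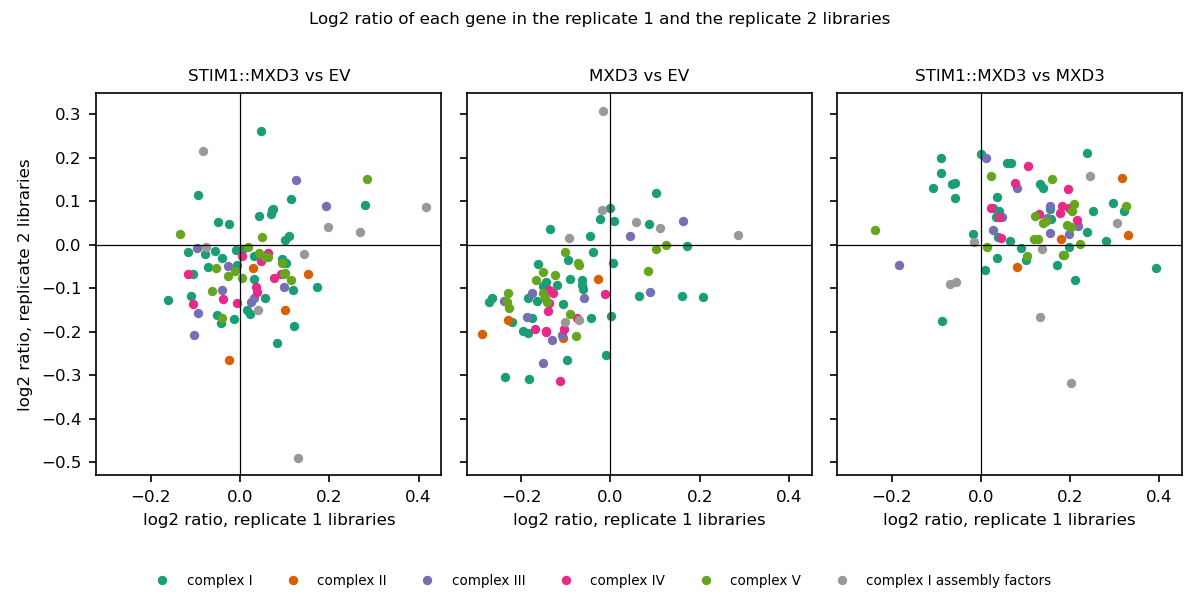
Log2 ratio of each gene with a mean of at least 5 CPM between the replicate 1 libraries (horizontal axis) and the replicate 2 libraries (vertical axis) of the groups compared, coloured by complex. With MXD3 against EV 62 of 87 genes lie below 0 in both ratios, against 29 with STIM1::MXD3 against EV, where 16 lie above 0 in both. Both comparisons use the same EV libraries, and the matching shares of all genes tested were not computed.

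With STIM1::MXD3 against EV the genes had values on both sides of 0. The log2 fold change was above 0 for 40 and below 0 for 49 of the 89, with a median of -0.01 (all genes tested 0.0096). The ratio of the replicate 1 libraries had a median of 0.031 and that of the replicate 2 libraries -0.054, and leaving out EV replicate 2 moved the fitted median to 0.037 and leaving out EV replicate 1 to -0.048. edgeR called 0 of 89 after adjustment (0.00648% of all genes) and 0 at an unadjusted p under 0.05 (0.953% of all genes), and DESeq2 called 0 (0.0194% of all genes). With the replicate block edgeR called 0 (0.0194% of all genes), and NDUFAF4 and ATP5MC1, both higher, had an unadjusted p under 0.05 (3.77% of all genes were higher by this rule). The fusion libraries lay above both EV libraries for 3 genes (3.37%, against 12% of all genes) and below them for 7 (7.87%, against 10% of all genes).

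The medians of the complexes were between -0.044 (complex III) and 0.0077 (complex V), and that of the assembly factors was 0.06. ATP5MC1, a gene for subunit c (chromosome 17 from 46970127 to 46973233, plus strand, GRCh37), stood at 51.7 and 55.4 CPM in EV, 56.3 and 55.3 CPM with MXD3 and 62.95 and 61.5 CPM with the fusion. Both fusion libraries were above the other 4, and the log2 fold change against EV was 0.22 ± 0.12 (adjusted p = 1.00, edgeR). NDUFAF4 stood at 33.5 and 32.4 CPM in EV, 36.2 and 33.3 CPM with MXD3 and 44.7 and 34.5 CPM with the fusion. Its value of 0.26 ± 0.16 (adjusted p = 1.00, edgeR) came mainly from the replicate 1 library, with ratios of 0.42 and 0.088. NDUFB6, an accessory subunit, had 0.20 ± 0.19. Of the genes with a mean of at least 5 CPM, NDUFAF6, CYC1 and NDUFS6 were lowest, at -0.16 ± 0.21, -0.15 ± 0.13 and -0.14 ± 0.29. Of the core subunits of complex I, 6 of 7 were below 0 (median -0.073), with NDUFS1 at -0.10 and NDUFV2 at 0.032.

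More of the genes differed by the replicate number in the labels than by the plasmid, in a comparison of 3 libraries against 3. In the edgeR fit with group and replicate number, 46 of the 89 genes differed between replicate 2 and replicate 1 (29.2% of all genes were called). The 89 genes were more abundant than most genes tested (median 98.9 against 19.2 CPM), and the share called among genes of like level was not computed. Of the 46, 30 were higher in replicate 2 (13.1% of all genes) and 16 lower (16.1% of all genes). Each of the 46 had the same direction in all 3 groups. They were called on these same differences, a rule that favours genes whose groups agree, so the shared direction is not separate evidence. DESeq2 also called 46 (27.2% of all genes). With the offsets for length and GC content 45 were called, 24 higher (13.6% of all genes) and 21 lower (16% of all genes). The labels do not say what the number marks. Leaving out MXD3 replicate 2 reduced the 46 to 30. The median over the 89 was 0.016, between 0.027 and 0.054 when 1 library was left out and -0.0299 with the offsets, with genes called in both directions in complexes I, III, IV and V.

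In complex V genes of the F1 part and of the membrane part were called in opposite directions. Of the 5 genes of the F1 part (ATP5F1A to ATP5F1E), which is the catalytic head with its central stalk, 4 fell in replicate 2. ATP5F1D, the delta subunit (chromosome 19 from 1241745 to 1244824, plus strand, GRCh37), stood at 219 and 142 CPM in the replicate 1 and 2 libraries of EV, 208 and 123 CPM with MXD3 and 211 and 137 CPM with the fusion. Every replicate 2 library was below every replicate 1 library, and the log2 difference was -0.67 ± 0.07 (SE; adjusted p = 9.36e-06, edgeR). ATP5F1A, ATP5F1B and ATP5F1C fell by less, with -0.30, -0.20 and -0.22, and ATP5F1E, the epsilon subunit, had 0.023 and did not pass (adjusted p = 0.832). The small membrane subunits ATP5ME, ATP5MF, ATP5MG, ATP5MJ and ATP5MK rose, by 0.38, 0.44, 0.28, 0.32 and 0.34. ATP5PB fell (-0.21), and the 3 genes for subunit c did not pass the test.

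In complex I, 12 accessory subunits rose and 3 fell of 30, while of the 7 core subunits 0 rose and 2 fell. NDUFS6, an accessory subunit that is needed late in assembly, stood at 71.02 and 108 CPM in the replicate 1 and 2 libraries of EV, 66.4 and 89.9 CPM with MXD3 and 63.5 and 99.1 CPM with the fusion. The replicate 2 libraries were all above the replicate 1 libraries, with a log2 difference of 0.56 ± 0.07 (adjusted p = 6.58e-05, edgeR). NDUFS5 rose by 0.52, NDUFB2 by 0.50 and NDUFA1 by 0.46. The 2 core subunits that fell were NDUFS7 (-0.52; adjusted p = 5.69e-05, edgeR) and NDUFS8 (-0.37; adjusted p = 9.12e-04), which lie next to each other at the ubiquinone end of the cluster chain.

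In complex II, SDHB and SDHD fell in replicate 2 (-0.28 and -0.31), and SDHA and SDHC did not pass the test (-0.13 and -0.029). In complex III the core proteins UQCRC1 and UQCRC2 fell (-0.21 and -0.21), and UQCR11, UQCRB, UQCRH, UQCRHL and UQCRQ rose. UQCRH (chromosome 1 from 46769370 to 46782448, plus strand, GRCh37) stood at 459 and 616 CPM in the replicate 1 and 2 libraries of EV, 406 and 571 CPM with MXD3 and 450.1 and 595 CPM with the fusion, a log2 difference of 0.44 ± 0.07 (adjusted p = 1.86e-04, edgeR). UQCRHL, its near-identical copy, had the largest difference of the 87, 0.88 ± 0.10 (adjusted p = 3.30e-05), with 11.9 and 22.9 CPM, 13.3 and 23.8 CPM and 13.6 and 24.4 CPM in the same order. Reads of these copies may be shared between them, so the UQCRHL values are uncertain. In complex IV, 7 of 13 rose (COX5B, COX6A1, COX6C, COX7A2, COX7A2L, COX7C and COX8A) and COX5A fell (-0.20). COX7C had the largest difference, 0.48 ± 0.07 (adjusted p = 8.85e-05, edgeR), and COX4I1 one of -0.029. Of the assembly factors NDUFAF8 rose (0.36) and NDUFAF3 fell (-0.32).

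Among the called genes, 23 of the 30 that rose had canonical transcripts under 1000 bases, as had 51 of all 89 genes. Spearman's rho between the log2 difference and the length of the canonical transcript was -0.52 across the 89 genes, against -0.08 across 14364 genes with a known length. With GC content rho was 0.013 across the 89 genes, against 0.16 across all genes tested with a known value. The genes share libraries and are not independent, so rho is a description. The 11 respiratory chain genes under 500 bases had a median difference of 0.43, against 0.15 for 317 other genes of that length. The 19 genes of 1000 to 2000 bases had -0.15, against 0.014 for 2792 other genes. Short transcripts were also among the lowest, as ATP5F1D (995 bases), NDUFS7 (758 bases) and NDUFS8 (737 bases) had the lowest values. Beside these differences, 8 of 10 erythroid markers fell in replicate 2 and 0 rose, against 16.1% and 13.1% of all genes. Their summed level was 8919 and 8056 CPM in the replicate 1 and 2 libraries of EV, 9508 and 8001 CPM with MXD3 and 10016 and 7199 CPM with the fusion. The part of the marker levels in these differences was not tested.

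**Figure D4:**
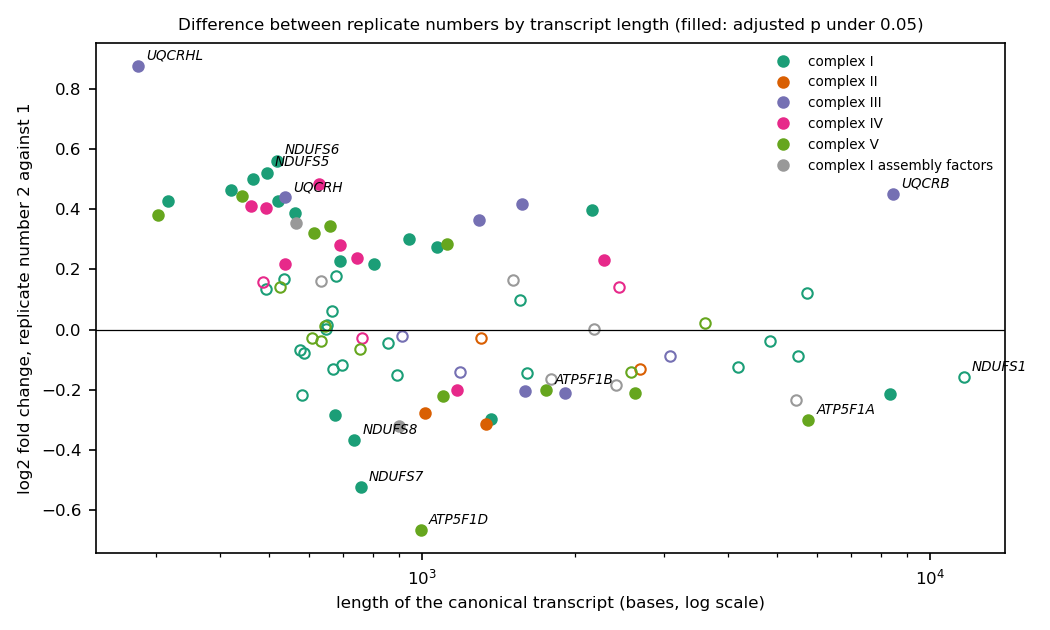
Log2 fold change of replicate 2 against replicate 1 (edgeR, with group in the fit, vertical axis) and length of the canonical transcript (bases, log scale, horizontal axis) for the respiratory chain genes with a mean of at least 5 CPM, coloured by complex. Filled points passed the test. Of the 30 filled points above 0, 23 lie under 1000 bases, and ATP5F1D, NDUFS7 and NDUFS8 lie lowest.

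Summed over their genes, the nuclear-encoded levels were steady beside the mitochondrially encoded ones. The 94 genes summed to 13245 and 13471 CPM in the EV libraries, 12170 and 12349 CPM with MXD3 and 13446 and 12904 CPM with the fusion, so both MXD3 libraries lay below the other 4, and the highest library had 1.11 times the lowest. Complex II summed to 602 to 768 CPM, complex III to 1645 to 2020.5 CPM, complex IV to 1878 to 2408 CPM, complex I to 3049 to 3366 CPM and complex V to 4482 to 5338 CPM. The 13 subunits encoded by mitochondrial DNA summed to 24432 and 12709 CPM in EV, 12215 and 31456 CPM with MXD3 and 13879 and 24393 CPM with the fusion, a 2.58-fold range. Their order by replicate was opposite in EV, with a median log2 ratio of replicate 2 to 1 of -0.66 against 1.48 with MXD3 and 0.999 with the fusion. For MXD3 against EV their median was 0.32, which combined -1.02 in the replicate 1 and 1.34 in the replicate 2 libraries. None of the 13 was called in a group comparison by edgeR or DESeq2, and 0 had an unadjusted p under 0.05.

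**Figure D5:**
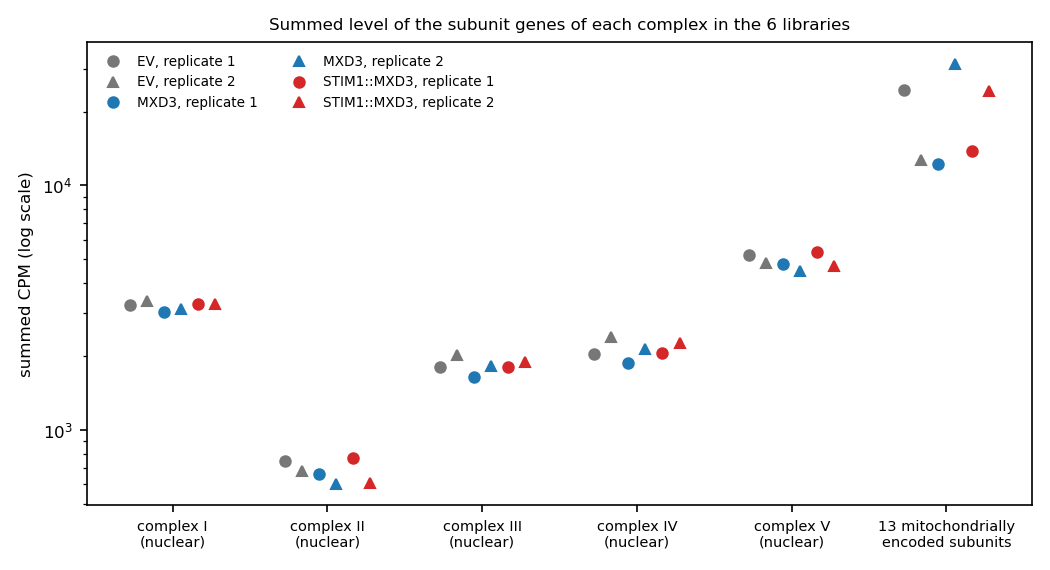
Summed CPM (log scale, vertical axis) of the nuclear genes of each complex and of the 13 mitochondrially encoded subunits in the 6 libraries. Circles are replicate 1 and triangles replicate 2, coloured by group. The nuclear complexes vary little between libraries, while the mitochondrially encoded sum runs from 12215 to 31456 CPM.

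Other genes of the pathway were taken from general lists. A list of 17 genes held enzymes of the citric acid cycle, which supplies the electrons, and of the pyruvate dehydrogenase complex, which feeds the cycle. These 17 genes had medians of -0.11 with MXD3 against EV (14 of 17 below 0), 0.10 with the fusion against MXD3 and -0.018 with the fusion against EV. edgeR and DESeq2 called 0 of them in these comparisons, with 0 at an unadjusted p under 0.05 in edgeR. By replicate number 9 fell and 1 rose (against 16.1% and 13.1% of all genes), the lowest being SUCLG2 (-0.40). The gene that rose was PDHA1 (0.22), of pyruvate dehydrogenase, and PDHB and PDHX of the same complex were among the 9 that fell. The 44 tested assembly factors other than NDUFAF1 to NDUFAF8 had medians of 0.0044, 0.10 and 0.11 in the same order, and 0 were called by either tool without the block. Their lowest value with MXD3 against EV was that of PET117 (-0.40 ± 0.76) and the highest that of COX20 (0.66 ± 0.67), both assembly factors of complex IV that stood under 1 CPM in every library (0.196 to 0.716 and 0.280 to 0.854 CPM). ECSIT, an assembly factor of complex I that was picked after its values were seen, had an unadjusted p under 0.05 in the first and the second comparison (0.0297 and 0.0497, edgeR; adjusted p = 0.999 and 1.00). It stood at 76.7 and 67.4 CPM in EV, 56.7 and 53.6 CPM with MXD3 and 75.4 and 63.7 CPM with the fusion. The MXD3 libraries were below the other 4. DESeq2 with the replicate block, which called 254 of 15431 genes for MXD3 against EV, called ECSIT there.

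The 13 tested regulators of respiratory genes, among them NRF1, GABPA, YY1 and TFAM, had medians of 0.12, -0.060 and 0.086, and edgeR and DESeq2 called 0, with 0 at an unadjusted p under 0.05 in edgeR. DESeq2 with the replicate block called TWNK for MXD3 against EV, where it called 254 of 15431 genes. TWNK, the mitochondrial DNA helicase, had the highest value with either construct against EV, 0.49 ± 0.30 with MXD3 and 0.35 ± 0.30 with the fusion, and GABPB1, a GABP subunit, the lowest, -0.14 ± 0.25 and -0.14 ± 0.25. CYCS, the cytochrome c that carries electrons from complex III to IV, had 0.015 with MXD3 and 0.10 with the fusion against EV. ATP5IF1, the inhibitor of ATP synthase, had 0.090 and -0.035, and by replicate number it rose by 0.57 (adjusted p = 3.89e-05, edgeR).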

How the data were processed

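RNA of 6 K562 libraries (3 plasmid groups of 2) was analysed. The deposited values were raw counts per NCBI Gene ID, 1 table per library, which the authors made from read pairs of poly A libraries. The submitters' processing notes name HISAT2 2.2.1, featureCounts 2.0.1 and hg19. The annotation and use of strand are not given in the sources used here, so counts of overlapping genes and near-identical copies (RefSeq lists 193 pseudogenes with the same prefixes, 4 of which have a row in the tables) are uncertain. Depth was 53048343 to 63835779 counts per library.

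Symbols came from RefSeq for 23696 of 25702 IDs (92.2%). The read-through genes ATP5MF-PTCD1 and NDUFC2-KCTD14 were not analysed here. Positions, lengths and GC content came from canonical GENCODE transcripts on GRCh37. Genes were kept with filterByExpr (15431 genes), scaled by TMM and tested two-sided with edgeR 4.0.16 (R 4.3.3, quasi-likelihood F tests) in 1 fit over all 6 libraries with no covariate. P-values were adjusted over all genes by the Benjamini-Hochberg method with a threshold of 0.05. Ratios of single libraries were taken on log2 CPM with a prior count of 2. Replicate number was tested in a fit with group. Alternatives were DESeq2 1.42.0, RLE factors, no filter, halved counts, length and GC offsets, a replicate block, the 4 libraries compared alone and leaving out each library. The code was tested on simulated data.

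The labels give the number but not its meaning. The differences of replicate 2 from replicate 1 correlated between groups over the 15431 genes (r = 0.270 between EV and MXD3, 0.364 between EV and the fusion, 0.450 between both constructs). Over the 89 respiratory chain genes r was 0.822, 0.852 and 0.643 in the same order. This is a hint from the data that the number pairs the libraries, so the blocked counts stand beside the others. Standard errors of the group comparisons are those of the fit without the block. The p-values of the group comparisons rest on a spread estimated over all 3 groups of 2 transfections of 1 cell line, with information shared across genes. Those of the replicate number rest on the spread left in the fit with group and number.

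Named genes were a fixed list of subunits, the isoforms of complex IV, NDUFAF1 to NDUFAF8, the 3 highest and 3 lowest members per comparison with a mean of at least 5 CPM, and up to 5 members at an unadjusted p under 0.05. Others were named after their values were seen. The values of 1 gene of the fixed list are not reported here. The members and lists were chosen with earlier results of these data known.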

Additional observations from a re-analysis of the deposited data

How the results depend on the processing

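In the 3 group comparisons 0 respiratory chain genes were called under every alternative run, and the medians over all of these genes moved by less than 1 SD between libraries for both constructs against EV. For STIM1::MXD3 against MXD3 the median (0.094) was 0.041 with the length and GC offsets and 0.036 with these offsets and the replicate block, and between 0.0399 (without MXD3 replicate 1) and 0.14 (without MXD3 replicate 2) when 1 library was left out. With the replicate block alone the medians were -0.12 for MXD3 against EV, 0.094 for STIM1::MXD3 against MXD3 and -0.012 for STIM1::MXD3 against EV, and the block changed no call of these genes. By replicate number, leaving out 1 library gave 30 (without MXD3 replicate 2) to 35 called genes instead of 46, with medians between 0.027 and 0.054, and the offsets gave a median of -0.0299. Fewer libraries were fitted in the former, and the cause of the other shifts was not tested. Medians of the complexes and other groupings changed sign in 2 of 112 values for MXD3 against EV, 5 of 112 for STIM1::MXD3 against MXD3 and 13 of 112 for STIM1::MXD3 against EV. Single named genes changed sign in 22 of 640 values for MXD3 against EV, 59 of 672 for STIM1::MXD3 against MXD3 and 73 of 640 for STIM1::MXD3 against EV. By replicate number 36 of 516 values of named genes lost their call and 4 gained one. Leaving mitochondrial genes out, an alternative chosen after seeing the data, left 0 genes called in the group comparisons and 46 by replicate number. In the fit without the replicate block, with 2 libraries a group, the standard errors of single genes (median 0.16) exceeded most of the differences between groups. That fit counts the difference between replicate numbers as spread.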
